A study of Mus musculus with 120 samples.

Results

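Erg is a transcription factor of the ETS family, encoded by a gene of human chromosome 21 (HSA21), and the arrays described here recorded the response of mouse embryonic stem (mES) cells to its overexpression for 24 hours. The members are the 6 Mouse430_2 arrays labelled as Erg ES clone, out of 120 arrays in the series. They come from 3 mES clones, each hybridized before induction (T0, tetracycline present) and 24 hours after tetracycline (Tc) was withdrawn (T24). All clones derive from the EB3 line, which carries a docking site in the ROSA26 locus, and all were grown in medium with leukemia inhibitory factor (LIF), which keeps mES cells undifferentiated. The transgene in every Erg array is the mouse Erg coding sequence with a carboxyl-terminal 3xFLAG tag behind a Tet-off promoter, so that it is off with Tc and transcribed without it. The 3 clones are separate integrants into the same locus of 1 parental line. Induced cells were also washed, kept without Tc and replated, whereas no Tc withdrawal of cells without a transgene is among the arrays, so that the effect of Erg and that of the withdrawal itself cannot be told apart within these 6 arrays. For comparison, 13 further genes have Mouse430_2 arrays labelled T24 (78 arrays), among them Ets2 and Gabpa, which encode other ETS factors of HSA21. The label of the Pfkl arrays is T24, while the study's own table of clones has a later time for that gene.

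ETS factors share a DNA-binding domain that recognizes a GGAA core, and they act as activators or repressors depending on the member and its partners. Erg is expressed in endothelial cells, where it maintains vessel integrity and junctions, and in hematopoietic stem cells. The same core is bound by the ubiquitous Gabpa, which occupies the promoters of many housekeeping genes at the consensus CCGGAAG.

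Values are log2 intensities, made by the authors with the robust multi-array average (RMA). A difference is induced minus uninduced, so that 1 unit is a factor of 2. A probe set was called higher or lower when the moderated test of limma, with the clone as a block, gave a Benjamini-Hochberg adjusted p under 0.05 over all 45101 probe sets. Medians of the 6 arrays ran from 4.96 to 4.98 and lower quartiles from 3.62 to 3.63. The 3 clones limit the precision, and p-values refer to the spread between these clones. Gene levels are those of bulk cultures, in which fewer cells of a type and less RNA per cell cannot be told apart. The cells carried the markers of their label: all 6 ES cell markers were measured, with Pou5f1, the core factor of pluripotency, at 13.05, 13.12 and 13.08 at T0 and Dppa5a at 14.21, 14.09 and 14.19.

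Neither Erg probe set recorded a rise. Probe set 1425370_a_at was at 5.03, 5.06 and 4.62 in clones 1 to 3 at T0 and at 4.96, 4.93 and 4.95 at T24, a mean difference of 0.04 (SE 0.11, limma adjusted p = 0.874). Probe set 1440244_at was at 3.36, 3.54 and 3.42 and then 3.50, 3.45 and 3.45, a difference of 0.03 (adjusted p = 0.896). The T0 and T24 values overlapped for both, and 1440244_at lay below the lower quartile of every array. The transgene holds only the coding sequence, and where the probes lie relative to it was not examined here, so these probe sets do not check the labels. The calls of other genes below were made with these labels and so do not check them either. The study measured induction of the transgenes by q-PCR. It also reports a FLAG-tagged protein band for all genes tested by western blot, Erg among them.

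Of the 45101 probe sets 12% were called, 5.71% higher and 6.28% lower. The rises were larger than the falls. Among the higher probe sets 381 exceeded 1 log2 unit, 64 exceeded 2 and 8 exceeded 3, whereas among the lower ones 227 fell by more than 1 unit, 9 by more than 2 and none by more than 3. The medians of the called differences were 0.55 and −0.50. Probe sets called lower started from a median T0 level of 7.63, those called higher from 6.66, and all probe sets from 4.96. The 3 clones differed in the size of the response. The median difference of the higher probe sets was 0.60 in clone 1, 0.48 in clone 2 and 0.59 in clone 3, and that of the lower ones −0.51, −0.45 and −0.55. With 1 probe set per gene, 16.0% of 18194 genes were called, 6.69% higher and 9.35% lower, and the median difference over all genes was −0.02. The 3 T24 values did not overlap the 3 T0 values in 31.4% of the genes, which is the background for every remark on overlap below.

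The 20 largest rises included genes of vessels, signaling and the extracellular matrix. The largest, in Igfbp4, which encodes a secreted binding protein of insulin-like growth factors, reached 36.7-fold in the probe set with the largest difference. Its T0 levels were 4.29, 5.93 and 4.33 and its T24 levels 10.16, 10.11 and 9.88. Clone 2 started highest, the 3 induced values lay within 0.3 of each other, and the smaller difference of clone 2 lay in its uninduced value. All 6 probe sets of Igfbp4 were called higher, and the one used in the gene lists, chosen by its level in the other arrays, rose by 2.85 log2 units. Dmkn, which encodes a secreted epidermal protein, went from 3.73, 3.70 and 4.15 to 7.90, 7.66 and 8.03 (SE 0.09, adjusted p = 4.03e-06). The first values are close to the lower quartile of the arrays and the second well above their medians. Chst1, which encodes a keratan sulfate sulfotransferase, rose from 4.75, 4.52 and 4.56 to 8.10, 6.58 and 7.94, less in clone 2 than in the other two. The RNA for the signal regulator Arrb1, an arrestin of G protein-coupled receptors, rose from 5.64, 5.71 and 5.51 to 8.63, 8.33 and 8.47. Pde2a, a cyclic nucleotide phosphodiesterase, rose by 2.81, and the immediate early gene Ier5 by 2.70. The matrix genes Vwa1 and Bgn (biglycan) rose by 2.66 and 2.62. Rassf9 was below the lower quartile of every array at T0, at 3.32, 3.38 and 3.42, and at 5.95, 6.02 and 6.002 after induction. Further down the 20 were Lrtm2 (2.92), Crxos (2.86), Rflna (2.60) and Tm6sf1 (2.55), and the remaining members are described with their groups. The same sign in every clone was a condition for naming these 20 and the 20 falls below. In none of the 20 rises did the T0 and T24 values overlap, which such a choice favors.

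The 20 largest falls were smaller in size. Serpinb6c, which encodes an intracellular serine protease inhibitor, had the largest fall, from 7.54, 7.51 and 7.84 to 5.01, 4.97 and 5.12, a 6.04-fold loss that was alike in the 3 clones (−2.52, −2.54 and −2.72). Kbtbd11 fell from 9.84, 8.87 and 9.61 to 7.42, 6.52 and 7.60. Clone 2 was the lowest at both times, and the fall was of a like size in each clone. Prmt8, an arginine methyltransferase, fell from 8.12, 7.52 and 7.46 to 5.63, 5.36 and 5.51, and the bHLH repressor Msc (musculin) from 7.64, 7.93 and 7.72 to 5.45, 5.84 and 5.61. 2210016F16Rik fell from 8.99, 9.28 and 9.10 to 6.81, 7.27 and 6.70 and Trappc10, a subunit of a vesicle tethering complex, from 8.61, 8.41 and 8.73 to 6.61, 6.65 and 6.73. In neither did the T0 and T24 values overlap, and their promoters are printed further on. Myo1f, an unconventional myosin, fell by 4.39-fold (−2.36, −1.76 and −2.28 in clones 1 to 3). The list went on with Plekhh1 (−1.86), Cabp4 (−1.85), a calcium-binding protein, Fgf17 (−1.80), a fibroblast growth factor, Cnpy1 (−1.78), Amph (−1.77), which encodes amphiphysin, Fam241b (−1.77), Ift43 (−1.74), of intraflagellar transport, and Gm9564 (−1.73).

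**Figure D1:**
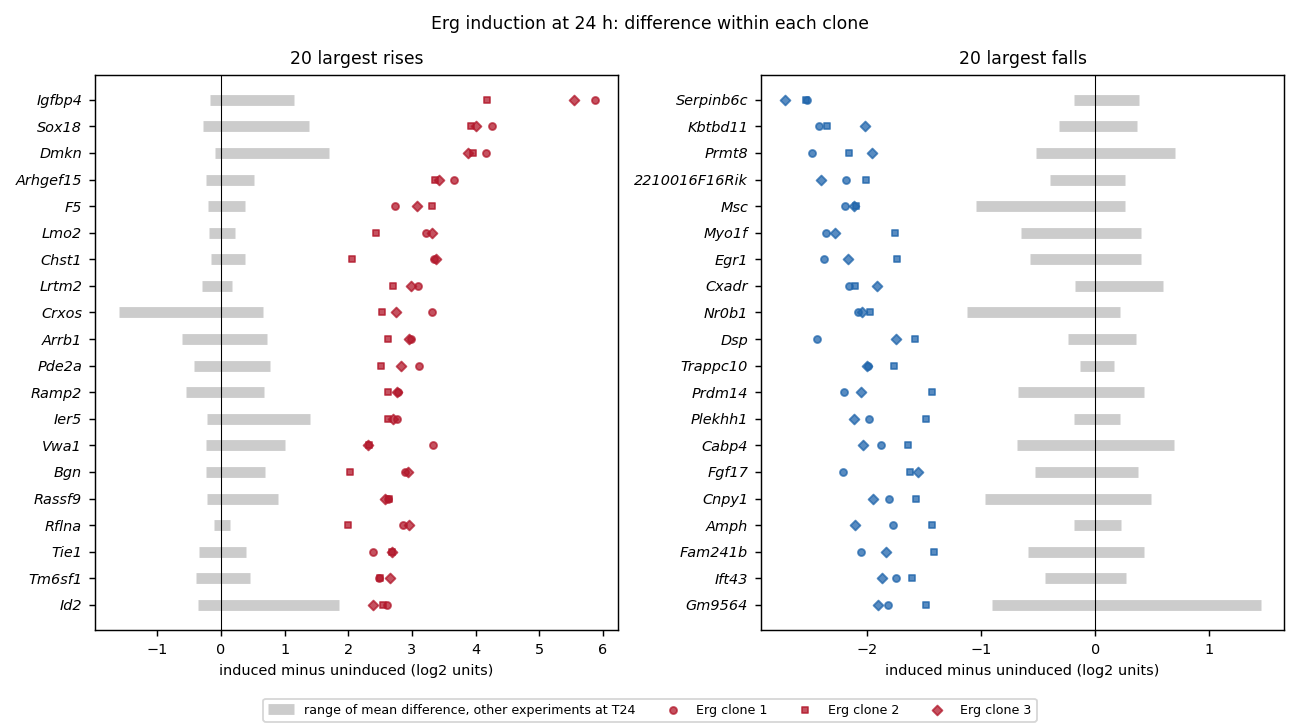
Difference induced minus uninduced (x axis, log2 units) of the 20 genes with the largest rises and the 20 with the largest falls, 1 symbol per Erg clone, beside the range of the mean difference over 13 other experiments labelled T24 (grey bars). All 40 Erg responses lie outside the grey bars, and clone 2 (squares) has the smallest rise for, among others, Igfbp4, Lmo2, Chst1, Bgn and Rflna.

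Other ETS factor genes responded in part. Of 24 measured, 4 were called higher and 3 lower (16.7% and 12.5%, beside 6.69% and 9.35% of all genes), with a median difference of 0.03. This list and those below were chosen with earlier results of these data known. Their shares beside those of all genes are therefore descriptions. Elk3, a repressor that works with serum response factor, rose from 5.87, 5.92 and 5.91 to 7.55, 7.15 and 7.31 (1.44, SE 0.10, adjusted p = 0.000195), with no overlap and with 3 of its 4 probe sets called higher. The repressor Erf, a target of ERK, rose by 0.70 (adjusted p = 0.0032), Elf4 by 0.60 and Elf2 by 0.43. Ets2 RNA fell from 8.81, 8.80 and 8.58 to 7.84, 8.03 and 7.94 (−0.80, SE 0.09, adjusted p = 0.0015). Elf3, an epithelial member, fell by 0.43 and Etv5, a target of FGF signaling, by 0.40. Fli1, the closest relative of Erg, stayed below the lower quartile of the arrays, at 3.32, 3.32 and 3.22 and then 3.21, 3.23 and 3.37 (adjusted p = 0.952). The vascular inducer Etv2 differed by 0.10 (adjusted p = 0.659), and Gabpa by −0.02 around levels of 10.5 to 10.7 (adjusted p = 0.927).

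Receptors and signaling genes of endothelial cells rose in many but not all cases. Of 30 measured, 14 were called higher and 2 lower (46.7% and 6.67%, beside 6.69% and 9.35% of all genes), with a median difference of 0.25 against −0.02 over all genes. Arhgef15, which encodes a guanine nucleotide exchange factor of vascular cells, showed the largest rise of the list. Its values went from 5.82, 5.69 and 5.62 to 8.84, 8.84 and 8.72 (SE 0.08, adjusted p = 5.44e-06), and all 3 of its probe sets were called. Ramp2, a subunit of the adrenomedullin receptor, rose from 6.81, 6.84 and 6.58 to 9.60, 9.46 and 9.34. Its partner Calcrl, which makes up the receptor itself, lay below the lower quartile at both times, at 2.90, 3.24 and 2.90 and 2.91, 2.98 and 2.94 (adjusted p = 0.728). In the Tie family of angiopoietin receptors, Tie1 rose from 4.81, 4.23 and 4.47 to 7.20, 6.91 and 7.16 (6.02-fold, SE 0.09, adjusted p = 1.44e-05), whereas Tek, the receptor that binds angiopoietins, was at 6.03, 6.25 and 6.05 and 5.89, 5.80 and 6.17 (−0.16, adjusted p = 0.494). Whether the 2 responses differ was not tested. Among the VEGF receptors Kdr, the main receptor of vessel growth, rose from 5.51, 5.35 and 5.45 to 7.35, 6.43 and 6.97, least in clone 2, and Flt4, the receptor of lymphatic vessels, from 6.12, 6.47 and 6.14 to 7.69, 7.35 and 7.39. Flt1 was at 5.69, 5.71 and 5.25 and 5.85, 5.64 and 5.84 (adjusted p = 0.347). The signaling adaptors and guidance receptors of the list included Robo4 (2.39, adjusted p = 1.31e-05), Rasip1 (2.21), which controls vessel lumen formation, Sh2d3c (2.09) and the semaphorin receptor Plxnd1 (1.71). Nos3, the endothelial nitric oxide synthase, rose from 7.83, 7.85 and 7.68 to 9.26, 9.19 and 9.15, and its values within a time lay within 0.2 of each other. Acvrl1, a TGF-beta family receptor of endothelium, and the co-receptor Eng rose by 0.79 and 0.58. On the lower side, the adaptor She fell from 6.79, 7.01 and 6.91 to 5.42, 5.86 and 5.46. Nrp2 fell by 0.56 (adjusted p = 0.0311) with overlapping values, and its adjusted p was 0.202 without the clone as a block. S1pr1 (−0.01), Dll4 (0.09) and Aplnr (−0.09) did not pass.

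Junction and surface proteins of endothelium gave a like picture, with 13 of 31 called higher, 3 called lower and a median of 0.17. The shares were 41.9% and 9.68%, the second close to the 9.35% of all genes called lower. Esam, an adhesion molecule of endothelial tight junctions, rose from 6.58, 6.54 and 6.75 to 8.74, 8.41 and 8.67 (SE 0.09, adjusted p = 3.2e-05), and the sialomucin Podxl from 6.99, 6.52 and 6.24 to 8.54, 8.42 and 8.38. The sialomucin Cd34, a marker of vessel and blood progenitors, went from 5.19, 5.84 and 5.31 to 6.64, 6.85 and 6.51, and Ecscr from 5.72, 6.16 and 6.14 to 7.15, 7.16 and 7.42. In none of these did the 2 times overlap. Pecam1, which mES cells also express, was 0.73 higher, and Icam1 was 0.70 higher. Cdh5 (VE-cadherin), the defining adhesion protein of endothelial junctions, rose from 4.47, 4.31 and 4.14 to 4.88, 4.53 and 4.79 (0.43, adjusted p = 0.0321) and stayed below or near the array medians. Without the clone as a block its adjusted p was 0.0653, and its other probe set was not called. Cldn5 rose by 0.55 (adjusted p = 0.0425). Jam2, a junctional adhesion molecule, fell from 10.63, 10.80 and 10.63 to 8.89, 9.56 and 9.04, and all 5 of its probe sets were called lower. Vwf, which encodes von Willebrand factor and is used as a defining endothelial marker, fell from 4.98, 5.13 and 5.25 to 4.18, 4.45 and 4.33 (−0.80, adjusted p = 0.0011). Emcn, Icam2, Cd93 and Clec14a, all endothelial surface genes, had levels between 3.11 and 4.53 on the 6 arrays and did not pass.

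Transcription factors of blood and endothelium included 6 called higher and 1 lower of 35, with a median of 0.01. The members called higher were 6 of 35 beside 6.69% of all genes, and 3 of them exceeded 1 log2 unit. Sox18, a SoxF factor of vascular and lymphatic development, rose 16.6-fold, from 4.95, 4.36 and 5.28 to 9.20, 8.28 and 9.28. Clone 2 was lowest at both times while its difference (4.25, 3.92 and 4.001 in clones 1 to 3) was close to the others. Lmo2, a bridging protein of the complex that specifies blood and vessel precursors, went from 5.53, 5.77 and 5.68 to 8.76, 8.20 and 8.996, and Gata2, a zinc finger factor of the same complex, from 6.51, 6.37 and 6.82 to 8.12, 7.72 and 8.34. Lyl1, the bHLH relative of Tal1, rose by 0.71 (adjusted p = 0.0063), Bcl6b by 0.61 and Hhex by 0.36. Tal1 itself was at 4.48, 4.29 and 4.17 and 4.48, 4.33 and 4.08 (−0.02, adjusted p = 0.931). The other SoxF genes Sox17 (0.17, adjusted p = 0.237) and Sox7 (−0.15, adjusted p = 0.334) did not pass, nor did Runx1 (0.07), Gata1 (0.04), Myb (−0.06) and Mecom (0.04). The one that fell, Klf2, a flow-responsive factor of endothelium that is also a naive pluripotency factor, went from 11.003, 11.25 and 10.92 to 10.20, 10.76 and 10.42.

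**Figure D2:**
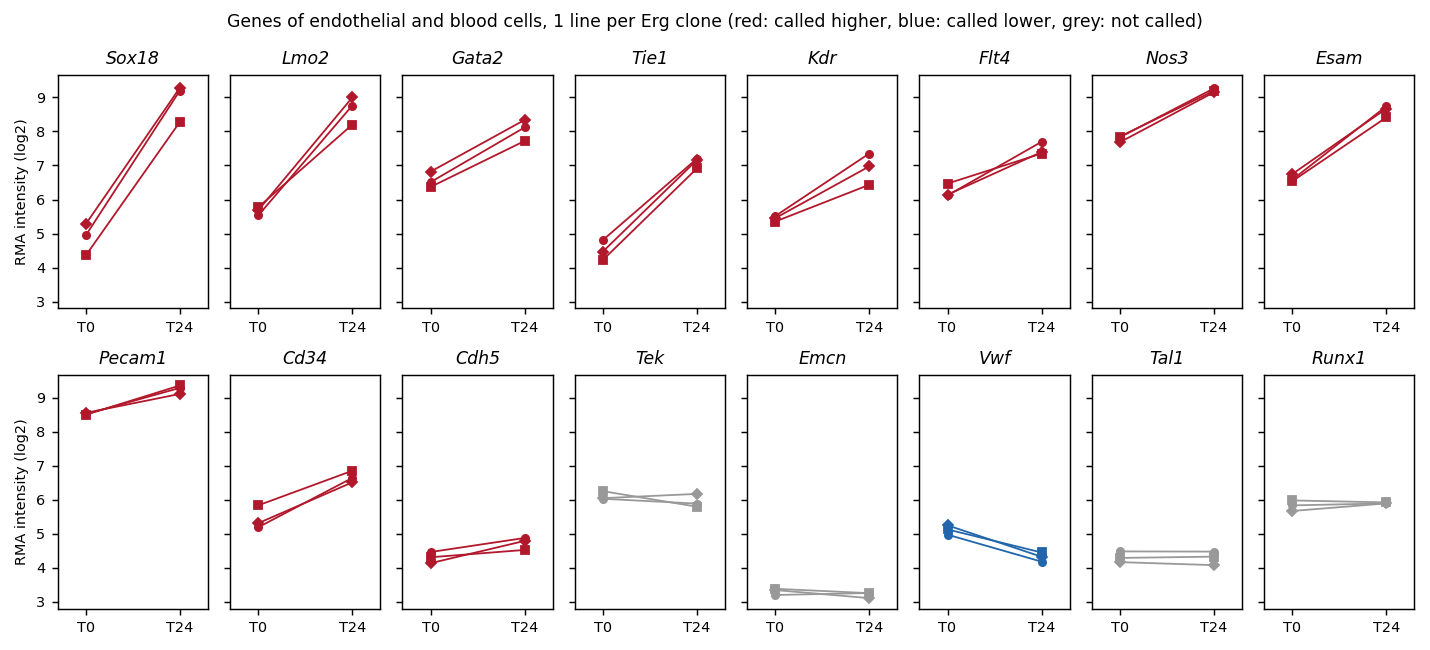
RMA intensity (y axis, log2) of 16 genes of endothelial and blood cells at T0 and T24 (x axis), 1 line per Erg clone. Sox18, Lmo2 and Tie1 rise steeply in all 3 clones, Cdh5 rises from 4.14 to 4.47 at T0 to 4.53 to 4.88 at T24, Vwf falls, and Tek, Emcn, Tal1 and Runx1 (grey) are not called.

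Genes of the BMP and TGF-beta pathway included 10 called higher and 4 lower of 36. These were 27.8% and 11.1% of the list beside 6.69% and 9.35% of all genes, and 2 of the lower calls were lost without the clone as a block. The Id genes, which encode inhibitors of bHLH factors and are direct targets of BMP signaling, rose together. Id1 went from 10.20, 10.16 and 10.24 to 12.34, 12.28 and 12.37 (SE 0.08, adjusted p = 1.52e-05), Id2 from 7.29, 7.42 and 8.01 to 9.90, 9.97 and 10.39 and Id3 from 8.18, 8.80 and 8.30 to 10.33, 10.48 and 10.70. None of these values overlapped between the times, and Id4 rose by 0.73. Among the ligands Tgfb1 rose from 6.84, 7.26 and 6.28 to 9.16, 9.05 and 8.59 (2.14, SE 0.12), whereas Bmp4, the main BMP of mES cultures, was at 10.21, 10.88 and 10.07 and 10.41, 10.57 and 10.23 (0.02, adjusted p = 0.96). Bmp2 differed by 0.26 (adjusted p = 0.101) at levels below the lower quartile. Of the receptors and mediators, the type I receptor Acvr1 rose by 0.83 and Smad5 by 0.52, and Bmpr1a, Smad1 and the BMP feedback inhibitor Smad6 did not pass (−0.04, 0.02 and −0.04). The targets Msx2 (0.68), Bambi (0.47) and Skil (0.69) rose too. The members that fell were the Nodal antagonist Lefty1 (−0.71), the inhibitor Smad7 (−0.53, with overlapping values and an adjusted p of 0.127 without the block), and the ligand genes Gdf3 (−0.39) and Inhbb (−0.39, 0.113 without the block).

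Among feedback and early genes of ERK signaling 9 of 30 were called higher and 5 lower (30% and 16.7%, beside 6.69% and 9.35% of all genes). Egr1, an immediate early gene, fell from 9.65, 10.47 and 8.94 to 7.28, 8.74 and 6.77. The clones differed widely within each time (SD 0.768 at T0 and 1.02 at T24, n = 3), with clone 2 highest in both, and the adjusted p was 0.000102 with the block and 0.0397 without it. The ERK inhibitor Spry4 fell by 0.85 in all 4 of its probe sets (adjusted p = 0.000584, 0.0769 without the block) and Spred1 by 0.69. Fgf4, the main ligand of ERK signaling in mES cells, fell from 10.18, 10.21 and 10.24 to 9.56, 9.65 and 9.75. In contrast the phosphatase genes Dusp5 and Dusp6, which are induced by ERK and restrain it, rose from 7.24, 7.57 and 7.21 to 8.32, 8.32 and 8.20 and from 10.15, 10.20 and 10.06 to 11.16, 10.99 and 10.85. Jun, a subunit of AP-1, rose by 1.44 (SE 0.12, adjusted p = 0.000408), Phlda1 by 1.06, Junb by 0.47 and Fgfr1 by 0.95 (SE 0.20).

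Genes of core and naive pluripotency fell more often than they rose. Of 31 measured, 15 were called lower and 1 higher, with a median difference of −0.24 and against 9.35% and 6.69% of all genes. The largest falls were in Nr0b1 (Dax1), a nuclear receptor that binds Oct3/4, from 10.998, 11.28 and 10.95 to 8.92, 9.31 and 8.90 (SE 0.08, adjusted p = 1.84e-05), and in Prdm14, a repressor that safeguards naive pluripotency, from 8.23, 8.22 and 8.42 to 6.03, 6.80 and 6.36. Nanog went from 12.48, 12.56 and 12.59 to 11.14, 11.59 and 11.51 (SE 0.10, adjusted p = 0.00039), a 2.2-fold fall. Nr5a2 fell by 0.92, Tcl1 by 0.81, Sox2 by 0.65, the LIF receptor Lifr by 0.63, Klf2 by 0.60, Zfp42 (Rex1) by 0.52 and Esrrb by 0.34 (adjusted p = 0.121 without the block). Pou5f1 (Oct3/4) was at 13.05, 13.12 and 13.08 at T0 and 12.93, 12.87 and 12.85 at T24 and did not pass (−0.20, adjusted p = 0.182), although its values did not overlap. Klf4 (−0.15), Tbx3 (−0.15), Tfcp2l1 (−0.11), Sall4 (−0.14), Utf1 (−0.02) and Dppa5a (−0.02) did not pass either. Stat3, which conveys the LIF signal, was the member called higher (0.35, adjusted p = 0.0388, 0.0728 without the block). The count of lower members was 11 without the clone as a block.

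**Figure D3:**
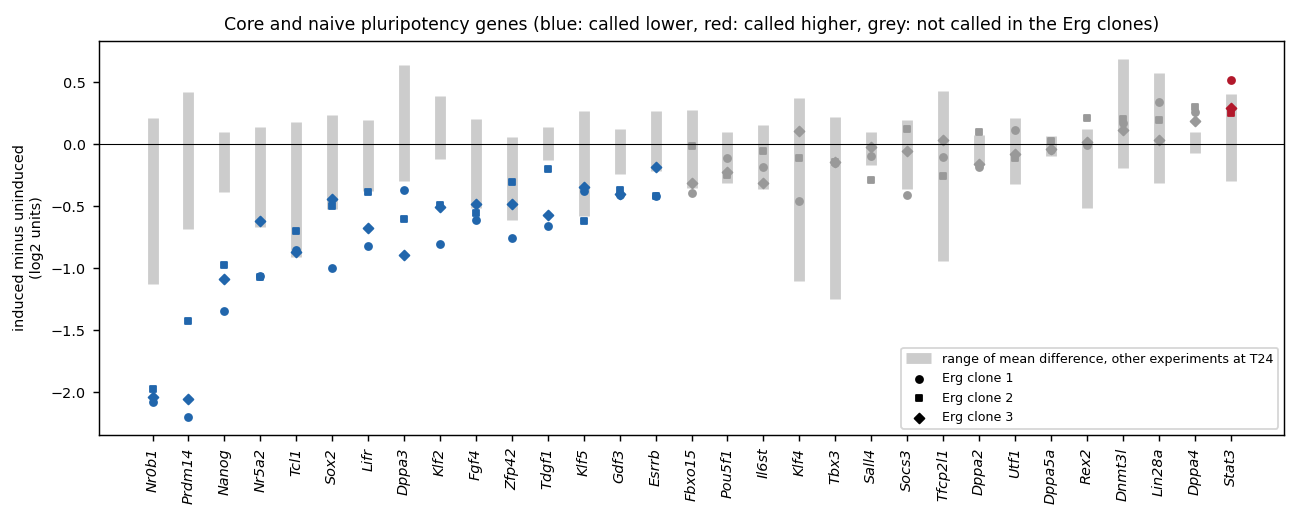
Difference induced minus uninduced (y axis, log2 units) of 31 pluripotency genes (x axis, ordered by the mean Erg difference), 1 symbol per Erg clone, beside the range of the mean difference over 13 other experiments labelled T24 (grey bars). Nr0b1, Prdm14 and Nanog lie below the grey bars in all 3 clones, and Pou5f1 lies within its grey bar.

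Genes that mark the formative state, which follows naive pluripotency after implantation, gave 6 higher and 4 lower of 17 (35.3% and 23.5%, beside 6.69% and 9.35% of all genes), and 5 and 2 without the block. Sox11, a SoxC factor, rose from 7.001, 6.50 and 6.63 to 8.81, 8.48 and 8.44 in all 6 of its probe sets (adjusted p = 2.97e-05), and Sox3 by 1.09. Pou3f1 (Oct6) rose by 0.80 with overlapping values (adjusted p = 0.0084, 0.119 without the block). The de novo methyltransferases Dnmt3a and Dnmt3b rose by 0.34 and 0.43. Fgf5, the usual marker of this state, was at 4.10, 4.10 and 3.88 and 4.18, 4.02 and 4.002 (adjusted p = 0.839). Zic5 fell by 1.13, Foxd3, a factor of the same transition, by 0.65, Zic2 by 0.51 (0.138 without the block), and Otx2, which directs it, by 0.69 (adjusted p = 0.047, 0.29 without the block). The Otx2 fall was mostly that of clone 2, the only clone with a T0 value above 5 (3.94, 5.30 and 3.95 at T0, 3.64, 3.98 and 3.51 at T24).

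Adhesion and keratin genes of epithelia included 6 called higher and 6 lower of 26. The shares were 23.1% and 23.1%, beside 6.69% and 9.35% of all genes, and the higher calls were 4 without the block. Cxadr and Dsp, of tight junctions and desmosomes, were among the 20 largest falls. Cxadr, the coxsackievirus and adenovirus receptor, went from 6.65, 7.06 and 6.75 to 4.49, 4.96 and 4.84 and Dsp (desmoplakin) from 6.98, 7.13 and 7.10 to 4.54, 5.55 and 5.35. Krt8 fell by 1.14 in all 3 of its probe sets, Grhl2, a transcription factor of epithelia, by 0.82, and Pkp3 by 0.51. Krt19 rose from 5.31, 5.36 and 5.52 to 6.38, 6.58 and 6.63, Jup by 0.96 (adjusted p = 0.0268, 0.0628 without the block) and the tight junction gene Tjp1 by 0.54. Cdh1 (E-cadherin), the adhesion protein that defines epithelia, was at 10.97, 10.45 and 10.94 and 11.07, 11.03 and 11.12 and did not pass (0.29, adjusted p = 0.15). Of 24 mesenchymal genes 5 were called higher, 20.8% beside 6.69% of all genes, and none lower (limma; 2 were below an unadjusted p of 0.05 with a negative sign). Snai1, a repressor of Cdh1, rose from 5.29, 5.76 and 4.996 to 6.84, 6.93 and 6.92 (SE 0.14, adjusted p = 0.000475), the integrin gene Itgb1 by 0.81, Sparc by 0.71 and Vim by 0.68.

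Of 24 Notch pathway genes 6 were higher and 4 lower (25% and 16.7%, beside 6.69% and 9.35% of all genes), and 4 and 4 without the block. Notch4, the endothelial receptor of the family, fell from 7.51, 7.75 and 6.98 to 5.43, 6.22 and 5.56 (SE 0.13, adjusted p = 0.000287) in 1 of its 3 probe sets, and Rbpj, the DNA-binding effector of Notch, fell by 0.51 in all 3 of its probe sets. The ligand gene Jag1 fell by 0.56 and the glycosyltransferase gene Rfng by 0.56. Notch1 (0.59), the ligand gene Dll1 (0.89), the glycosyltransferase gene Mfng (1.05) and the feedback inhibitor Nrarp (0.51) rose. The coagulation list held 5 higher and 3 lower of 28 (17.9% and 10.7%), the second share close to the 9.35% of all genes. F5 (factor V) rose from 4.24, 4.10 and 4.40 to 6.65, 6.65 and 6.73 in the probe set of highest level, and the anticoagulants of the vessel wall Procr (1.05), Tfpi (0.89) and Thbd (0.82) rose as well. F2r, the thrombin receptor, fell by 0.47. In the IGF list 3 of 19 were higher, 15.8% beside 6.69% of all genes, and none lower (limma; none with a negative sign was below an unadjusted p of 0.05). Besides Igfbp4 these were Igf2 (0.60) and Igf1r (0.54).

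The Wnt list had 4 higher and 4 lower of 26, which is 15.4% and 15.4% beside 6.69% and 9.35% of all genes. The receptor genes Fzd2 and Fzd7 rose by 0.84 and 0.80 and the target Axin2 by 0.76, whereas Fzd5 fell by 1.01 and the secreted inhibitors Sfrp1 and Notum by 1.22 and 0.88. Glycolysis and hypoxia genes gave 6 higher and 3 lower of 24 (25% and 12.5%, beside 6.69% and 9.35% of all genes), and 4 and 3 without the block. The hexokinase genes moved apart, Hk2 from 10.26, 10.48 and 10.40 to 9.51, 9.67 and 9.49 and Hk1 from 8.98, 9.10 and 8.82 to 9.69, 9.55 and 9.69, and so did the glucose transporters Slc2a3 (−0.67, 4 of 4 probe sets lower) and Slc2a1 (0.44, 3 of 3 higher). Ndrg1, a stress and hypoxia gene, rose by 0.96 and Vegfa fell by 0.57.

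Genes of mitosis and replication were mostly not called. Of 28 measured 2 passed, both higher and 7.14% of the list beside 6.69% of all genes (Mki67 by 0.40 and Cdc20 by 0.39), and the differences of the list ran from −0.28 to 0.40 with a median of 0.01. Pcna was at 13.36, 13.34 and 13.44 and 13.44, 13.36 and 13.34. Of 20 inhibitors of the cell cycle 6 were higher and 3 lower (30% and 15%, beside 6.69% and 9.35% of all genes), with a median of 0.19. Cdkn1c (p57) rose from 10.20, 9.79 and 10.20 to 11.19, 10.90 and 11.28 and Cdkn1a (p21) by 0.52, with overlapping values and an adjusted p of 0.174 without the block. Gadd45a fell from 9.39, 9.26 and 9.34 to 8.36, 8.32 and 8.19. Without the clone as a block the calls of the list were 3 higher and 1 lower.

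**Figure D4:**
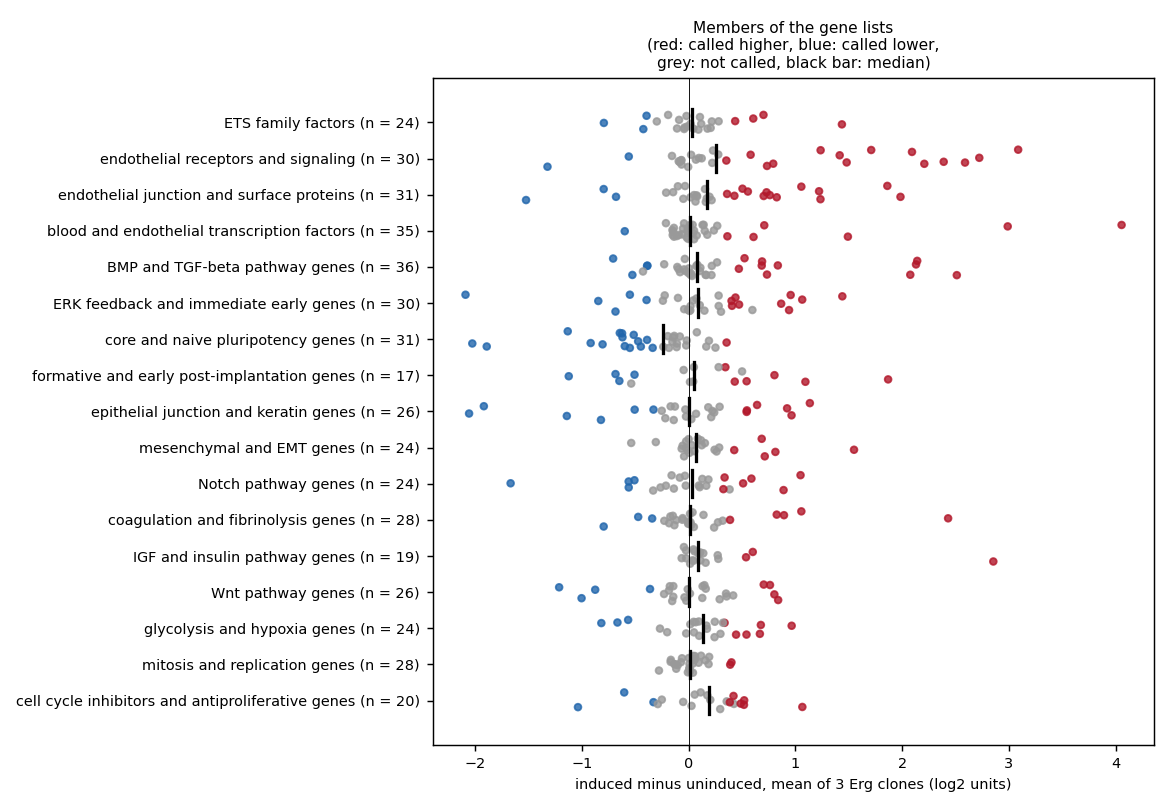
Difference induced minus uninduced (x axis, log2 units, mean of 3 clones) of the members of 17 gene lists, 1 point per gene, red if called higher, blue if called lower and grey otherwise, with the median of each list as a black bar. The lowest median is that of the pluripotency genes (−0.24) and the highest that of endothelial receptors (0.25), and the largest single values belong to Sox18, Arhgef15 and Lmo2.

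Markers of other cell types were set beside these groups. None of 9 blood cell markers, 10 primitive and visceral endoderm markers and 7 mesoderm markers was called (limma; 2, 2 and 1 of them were below an unadjusted p of 0.05). The summed log2 level of the blood markers ran from 45.2 to 45.7 over the T0 arrays and from 45.3 to 46.2 over the T24 arrays, that of the endoderm markers from 50.1 to 54.0 and from 50.6 to 53.8, and that of the mesoderm markers from 33.1 to 33.5 and from 33.4 to 33.6. Ptprc, which marks all leukocytes, was below the lower quartile of every array. Of 8 endothelial markers 5 were higher (Tie1, Kdr, Pecam1, Cldn5, Cdh5) and Vwf lower, with sums of 42.5 to 42.6 at T0 and 46.2 to 48.0 at T24. Among 8 trophoblast markers Ascl2 was called higher (0.78, adjusted p = 0.0057, 0.0521 without the block) and Tfap2c lower (−0.55, 0.0435 and 0.06), with sums of 41.9 to 42.5 and 41.6 to 42.6. Among 7 neural markers Nes was called higher (0.35) and Tubb3 lower (−0.36, adjusted p = 0.0334, 0.197 without the block), with sums of 38 to 38.6 and 37.9 to 38.5. Of 8 fibroblast markers 1 was called, Thy1, a surface glycoprotein that T cells, neurons and vascular cells also carry. It rose from 7.12, 8.10 and 6.98 to 9.40, 9.89 and 9.22. The sums of the list were 38.4 to 39.7 and 40.9 to 41.0, and Col1a1, Col3a1 and Dcn stayed below 5 on all 6 arrays. The part of cells of other types in the results above was not tested. The sum of the 6 ES cell markers was 76.4 to 76.8 at T0 and 73.6 to 74.5 at T24.

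The Ets2 and Gabpa experiments at T24 allow the Erg response to be set beside that to other ETS factors. With the same fit no probe set was called for Ets2 or for Gabpa. At an unadjusted p under 0.05 there were 2368 and 5196, and a Cyber-t kind of regularized test called 0 and 599. The difference between responses was tested over clones, 3 against 3, and these comparisons share the Erg arrays. The Erg response differed from that to Ets2 in 5.04% of the probe sets (1180 or 2.62% more positive and 1095 or 2.43% more negative) and from that to Gabpa in 5.08% (1160 or 2.57% and 1129 or 2.5%). All 40 named genes differed from Ets2, and 38 from Gabpa, as a description, since they were chosen by the size of their Erg response. The Sox18 difference was 0.20 in the Ets2 clones and −0.28 in the Gabpa clones (adjusted p of the difference to Erg 2.19e-06 and 4.53e-06), and that of Nr0b1 −0.11 and 0.14 (3.03e-05 and 0.000681). Nanog was −0.20 in the Ets2 and −0.22 in the Gabpa clones (0.0033 and 0.0176). The exceptions were Gm9564, which was also −0.90 in the Gabpa clones (adjusted p of the difference to Erg 0.158), and Cabp4 (−0.68, 0.0808). Crxos had a value of the opposite sign in the Gabpa clones (−1.60, not called there, adjusted p of the difference to Erg 0.000145), as did Id3 (−1.07, not called there, 0.0114). Without the clone as a block 432 probe sets differed from Ets2 and 2046 from Gabpa. Whether the transgenes reached like levels in the 3 experiments was not tested.

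Against the mean of the 13 other experiments labelled T24, 11.7% of the probe sets responded differently, 2208 (4.9%) more positively and 3061 (6.79%) more negatively. All 40 named genes did, also with 1 mean difference per experiment (adjusted p under 0.05 for each), and all 40 lay outside the range of the other 13. Of the probe sets called for Erg 87.5% lay outside that range, and of those not called 18.9%. These shares are descriptions, since both the named genes and the called probe sets were chosen by their Erg difference, which is part of this comparison too. Tie1 ran from −0.35 (Gabpa clones) to 0.39 (Bach1 clones) in the other experiments. Its adjusted p of the difference (limma) was 3.84e-16 over clones and 5.55e-08 with 1 mean difference per experiment. Sox18 ran from −0.28 (Gabpa clones) to 1.39 (Nrip1 clones), and Egr1 from −0.57 (Ets2 clones) to 0.40 (Pfkl clones). The Nrip1 clones held the highest other value for many of the rises, among them Igfbp4, Sox18, Dmkn, Ier5 and Id2, with Id2 ranging from −0.37 (Olig2 clones) to 1.85 (Nrip1 clones). Ankrd37, a hypoxia gene, rose by 0.54 in the Erg clones and ranged from 0.11 (Olig1 clones) to 0.66 (Olig2 clones) elsewhere, with no difference from their mean that passed (adjusted p = 0.807). Inhbb ran from −1.52 (Nrip1 clones) to 0.31 (Dyrk1a clones) and did not pass either (adjusted p = 0.462), nor did Tgfbi, from −0.68 (Olig2 clones) to 1.47 (Nrip1 clones) (adjusted p = 0.433).

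Promoters of the called genes were then read for ETS words. The windows are those of RefSeq on GRCm38.p6 and span 250 bases before to 50 bases after a gene's start. Of 18194 genes, 14453 matched a window by symbol (18110 windows). Words were searched on both strands. CCGGAAG was present in 8.86% of all 32851 windows and in 13% of the matched ones. Among genes called lower it was present in 26.4% of 1787 windows (95% Wilson interval 24.4 to 28.5), among genes not called in 12% of 14995 (11.4 to 12.5) and among genes called higher in 6.85% of 1328 (5.61 to 8.34). The intervals cover counting error only, and windows of 1 gene can overlap. Over all called genes the shares of the 3 other words lay closer together. CAGGAAG was present in 12.9% of the windows of lower genes, 12.7% of those not called and 14.7% of those of higher genes, GGAAGGAA in 3.25%, 3.38% and 4.97%, and AACAGGAA in 1.85%, 2.55% and 2.26%. GGAAGGAA and CCGGAAG can overlap in sequence. Windows of lower and higher genes were alike in G and C content (medians of 60.0% and 61.7%), and those of genes not called had 57.7%.

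The 4 genes with the largest falls among those with CCGGAAG in a window are examples of the word near the start of transcription. They were picked for the word and for the size of the fall. Each is printed with its build, GRCm38.p6, 5′ to 3′ on the strand of the gene, with CCGGAAG or its reverse complement CTTCCGG in capitals and the start of the gene right after the first 250 bases.
2210016F16Rik, chr13:58385176-58385475, minus strand: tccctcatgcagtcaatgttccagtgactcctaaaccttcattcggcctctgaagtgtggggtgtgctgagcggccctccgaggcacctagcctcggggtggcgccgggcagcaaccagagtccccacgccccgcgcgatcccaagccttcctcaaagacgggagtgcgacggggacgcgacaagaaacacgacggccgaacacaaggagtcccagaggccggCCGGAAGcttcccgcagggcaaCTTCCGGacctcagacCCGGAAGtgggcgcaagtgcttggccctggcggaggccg
Trappc10, chr10:78244596-78244895, minus strand: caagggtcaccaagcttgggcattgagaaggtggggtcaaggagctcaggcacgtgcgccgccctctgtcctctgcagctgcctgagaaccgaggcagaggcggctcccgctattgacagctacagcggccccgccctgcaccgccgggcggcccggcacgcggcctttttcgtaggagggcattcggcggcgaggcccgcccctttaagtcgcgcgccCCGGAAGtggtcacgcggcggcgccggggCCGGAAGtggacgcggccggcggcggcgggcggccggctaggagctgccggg
Cnpy1, chr5:28210119-28210418, minus strand: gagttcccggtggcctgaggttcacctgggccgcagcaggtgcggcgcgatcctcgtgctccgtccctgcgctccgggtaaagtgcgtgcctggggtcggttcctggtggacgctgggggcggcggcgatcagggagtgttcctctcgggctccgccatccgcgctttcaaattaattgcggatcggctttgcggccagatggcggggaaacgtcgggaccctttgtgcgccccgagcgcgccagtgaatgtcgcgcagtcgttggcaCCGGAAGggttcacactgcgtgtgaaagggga
Gna14, chr19:16435417-16435716, plus strand: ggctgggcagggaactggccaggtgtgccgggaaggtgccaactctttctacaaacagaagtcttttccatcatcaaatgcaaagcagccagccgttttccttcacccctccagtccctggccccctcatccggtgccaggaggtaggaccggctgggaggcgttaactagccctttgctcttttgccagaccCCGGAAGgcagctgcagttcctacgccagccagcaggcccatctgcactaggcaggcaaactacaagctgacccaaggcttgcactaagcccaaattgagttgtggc
In 2210016F16Rik the 3 copies begin 27 and 5 bases before and 11 bases after the start, and in Trappc10 the 2 copies begin 31 and 2 bases before it. In Cnpy1 the copy begins 18 bases after and in Gna14 57 bases before the start. Gna14, which encodes a G protein alpha subunit and is not among the 20 largest falls, went from 5.82, 6.27 and 6.08 to 4.42, 4.62 and 4.30. Next in size among genes with the word came 2810021J22Rik (−1.48), Klhdc2 (−1.42), a substrate receptor of a ubiquitin ligase, Fam207a (−1.41), Zfp105 (−1.33) and Tinf2 (−1.29), a shelterin subunit of telomeres. Tinf2 was at 9.37, 9.54 and 9.37 and then 8.11, 8.31 and 7.99, without overlap. These genes are named for the word and the size of their fall, after their values were seen. Of the 20 largest falls 13 had a window and 3 of these CCGGAAG, and of the 20 largest rises 11 had a window and none CCGGAAG.

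Genes with more copies fell more often. Windows without CCGGAAG belonged to a lower gene in 8.35% of 15755 cases and to a higher gene in 7.85%. With 1 copy the shares were 18% and 4.49% of 1938, and with 2 or more copies 29.5% and 0.959% of 417 (123 lower and 4 higher). The median difference went from −0.01 through −0.08 to −0.17. The median level rose with the copies too, from 6.24 through 8.21 to 8.83, and the trend with copies was not read within levels. When the word was followed by T, the longer consensus, 24.8% of 1056 windows belonged to lower genes, and when followed by C, A or G 21.3%, 16.8% and 15.7%. Copies in the windows of lower genes lay closer to the start. The median position of the middle of the word was 24 bases before the start, and 67.6% lay within 50 bases of it. For genes not called these values were 39 bases before and 56.0%, and for genes called higher 79 bases before and 45.4%. The falls were mostly small. Among genes that fell by more than 1 log2 unit the word was present in 15.2% of 132 windows (10 to 22.2). That interval covers the 12% of genes not called. Genes that rose by more than 1 unit had the word in 3.29% of 213 windows (1.6 to 6.63). In the same windows CAGGAAG was present in 18.9% (13.2 to 26.5) and 16.0% (11.7 to 21.5), GGAAGGAA in 3.79% (1.63 to 8.56) and 7.98% (5.04 to 12.4), and AACAGGAA in 3.79% (1.63 to 8.56) and 1.88% (0.733 to 4.73). Of the 4 words CAGGAAG was the most frequent in both sets, as it was among genes not called (12.7%). Its interval for the genes that rose covers that share, and its interval for those that fell begins above it. GGAAGGAA was above its 3.38% among genes not called in those that rose.

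Genes with CCGGAAG are expressed at higher levels (a median of 8.21 with 1 copy and 6.24 without), and the genes called also lay at higher levels, so the shares were also read within bins of the level in the other Mouse430_2 arrays. At levels of 7 to 9 the word was present in 28.6% of the windows of lower genes, 17.6% of those not called and 6.74% of those of higher genes, and at 9 to 11 in 33.0%, 22.3% and 9.09%. At 11 to 15 the 3 shares were 27.2%, 22.8% and 27.6%, with intervals that overlapped. These bins were chosen after the data were seen.

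**Figure D5:**
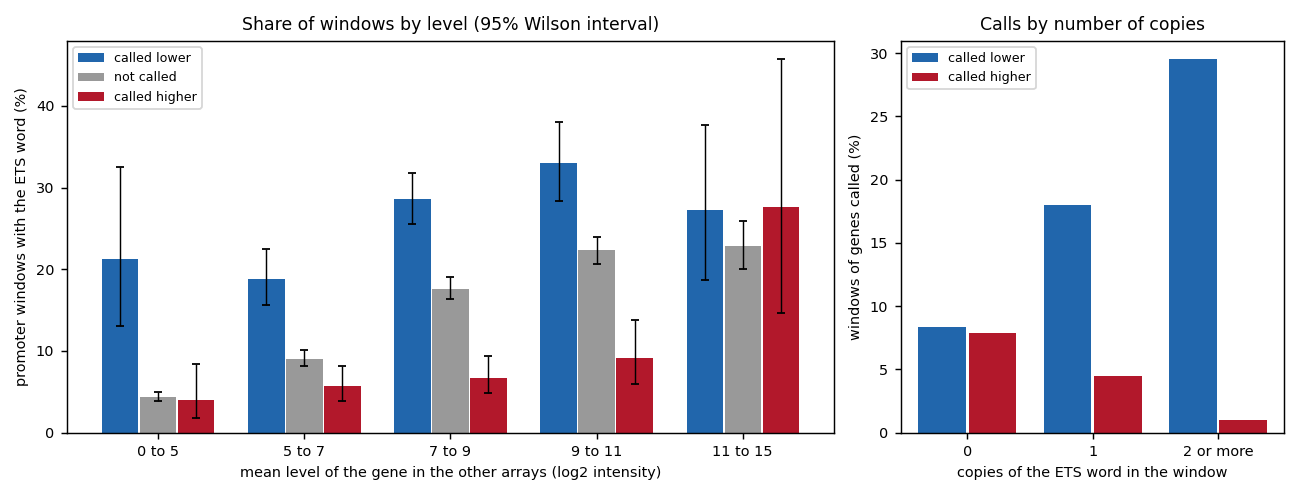
Left, share of promoter windows with the ETS word CCGGAAG (y axis, percent, with 95% Wilson intervals for counting error) for genes called lower, not called and called higher, by the mean level of the gene in the other arrays (x axis, log2 intensity). Right, share of windows whose gene was called lower or higher (y axis, percent) by the number of copies of the word (x axis); the share called lower goes from 8.35% to 29.5% and the share called higher from 7.85% to 0.959%.

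The word was then set beside all others of the same length, and its genes beside the other experiments, as descriptions added after the data were seen. Among 8192 words of 7 letters, each counted with its reverse complement, CCGGAAG had the largest excess in windows of lower genes over those not called (14.5 percentage points) and also the largest deficit in windows of higher genes (−5.10 points). The next was ACTTCCG, which overlaps it, in both orders (12.1 and −3.80 points). In windows of higher genes the largest excess over those not called was 10.3 points, shared by the words CCCCGCC and CCGCCCC and by CCCTCCC. The first of these, which overlaps the GC box of Sp factors, was in 44.3% and 33.9% of the windows. CCCCGCC was also in excess in windows of lower genes (39.0%, 5.06 points over those not called). So was CCGCCCC (5.99 points), whereas the excess of CCCTCCC there was 0.722 points. In the Erg clones the median difference of the 2165 genes with CCGGAAG was −0.0924, and that of the 12288 genes without it −0.0071, a gap of −0.0853. The gap was −0.0906, −0.0899 and −0.114 in clones 1 to 3. In the 13 other experiments it ran from −0.0223 (Olig1) to 0.0542 (Dyrk1a), with −0.0054 in the Ets2 and −0.0114 in the Gabpa clones. Among genes at levels of 7 or more it was −0.0932 for Erg and from −0.0351 (Gabpa) to 0.006 (Dscr1) for the others. Of the genes with the word 19.4% were called lower and 4.06% higher, and of those without it 7.80% and 7.09%. A word in a window is not a binding site, and no binding was measured in these arrays.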

How the data were processed

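The authors hybridized RNA of induced and uninduced clones to Mouse430_2 arrays and normalized them with RMA. The deposited values are RMA log2 intensities per probe set; the submitters' processing notes name RMA and affy, with versions not given in the sources used here. Induced and uninduced arrays were normalized together by the authors. Gene names come from the platform annotation, updated through RefSeq symbols: 34958 probe sets had 1 gene, 932 several and 9211 none. Probe sets with several genes were not named.

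Induced minus uninduced was fitted with limma 3.58.1 in R 4.3.3 (lmFit, eBayes) with the clone as a block, and p-values were adjusted by Benjamini-Hochberg over all 45101 probe sets. The replicate number in the labels is the clone, and the study names the same clones at both times. Deviations from the group means correlated at 0.288, 0.318 and 0.273 within clones 1 to 3 and were negative between different clones. Given positive values within clones, the negative ones follow on average from subtracting the mean of 3 arrays. Responses were compared between experiments by limma on the differences per clone. Genes in lists and promoter counts used the probe set with the highest mean over the other Mouse430_2 arrays. Lists were described by counts and medians, with no set test, and 1 list is not reported here. Named genes were the 20 largest rises and the 20 largest falls among probe sets with 1 gene that passed an adjusted p of 0.05 and had the same sign in each clone, taking for each gene the probe set with the largest difference. The members, lists and comparisons were chosen with earlier results of these data known. Tables and figures were made with scipy 1.17.1, pandas 2.3.3, numpy 2.4.6 and matplotlib 3.10.9 under Python 3.11.15. The fit was tested on a single set of simulated data with 50 changed probe sets of each size among 45101: at 3 clones it found 0%, 50%, 62% and 84% of changes of 0.5, 1, 1.5 and 2 log2 units, with 0 false calls. Far fewer probe sets changed there than were called on the arrays, and the adjustment depends on that number. These shares and the false calls therefore do not carry over to the arrays. Alternatives covered the block, the test, the variance moderation, the normalization, dim probe sets, the threshold and leaving out each clone.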

Additional observations from a re-analysis of the deposited data

Results flagged for a closer look

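The response to Erg differed from that to other genes of the bank in the tests of the difference itself. It differed from the response to Ets2 in 2275 probe sets, from that to Gabpa in 2289, and from the mean of the other 13 experiments labelled T24 in 5269. These comparisons share the Erg arrays, and transgene levels were not compared between experiments.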

How the results depend on the processing

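The calls for Erg numbered 5405. A plain t-test without a clone term made 413 calls (185 higher and 228 lower), and a threshold of 0.01 left 2540. The regularized test of the Cyber-t kind made 4656 calls (2252 higher and 2404 lower). For its own calls the study names Cyber-t in its results and a t-test in its methods. Leaving out 1 clone gave 2408 to 4911 calls, with 2408 without clone 3 and 3401 without clone 1. Without the clone as a block there were 3860, and the other settings stayed within 1.5 times. The 2275 calls against Ets2 became 432 without the replicate block, 863 at a threshold of 0.01, and 1024 to 2136 with 1 Erg clone left out (1024 without clone 1, 1056 without clone 3). The 2289 against Gabpa became 711 at 0.01 and 674 to 1202 with 1 Erg clone left out (674 without clone 1, 1202 without clone 2, 821 without clone 3). The 5269 against the other experiments became 2129 without the replicate block, 3334 with 1 mean difference per experiment, and 3280 to 4292 with 1 Erg clone left out (3280 without clone 3). The differences of the Erg probe sets ran from −0.10 (without clone 3) to 0.13 for 1425370_a_at and from −0.026 (without clone 1) to 0.084 for 1440244_at. The share of CCGGAAG in windows of lower genes, 26.4%, was 29.7% among genes of level 7 or more, 29.6% without the replicate block, and 23.4% to 26.5% with 1 clone left out (23.4% without clone 3). The cause of these changes was not tested, beyond the smaller number of arrays. Of the 40 named genes 17 did not pass the plain t-test, while all 40 passed the test of the Cyber-t kind. No other setting in which they were fitted ended a call. The 169 calls over the list members were 138 without the block, where the counts of 3 of 26 lists moved by over 1.5 times. In a simulation with 50 probe sets changed at each size, none of those changed by 0.5 log2 units was found by limma. Far more probe sets were called on the arrays, where the medians of the called differences were 0.55 and −0.50, so neither that share nor the other simulated shares carry over.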
